A study of Mus musculus with 2 samples.

Results

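The genes described here load peptides onto major histocompatibility complex (MHC) class I molecules: the peptide transporter genes Tap1 and Tap2, the loading factor Tapbp, the class I light chain B2m, the heavy chains H2-K1, H2-D1, H2-T23 and H2-M3, the class I transactivator Nlrc5 and the peptide-trimming enzyme Erap1. They were taken as a list of 10 names, and every probe that carries one of these names on the array was used. Probes of 9 of the 10 names are on the array (17 probes), H2-D1 having no probe of that name, so 9 of the 27617 genes on the array are described, and 8 of these, with 15 probes, were measured, out of 17162 genes measured in all. The RNA came from the small intestine of C57BL/6 mice of 6 to 8 weeks. One group, Conv, ate conventional chow, and the other, FAF, a food antigen-free diet of amino acids over at most 5 generations. The growth protocol names both SPF and GF animals, and does not say which gave these RNAs. Each diet gave 1 total RNA sample, and the sources used here do not give the number of mice behind it. Both RNAs were hybridised together on 2 two-colour arrays with the dyes exchanged, so that the arrays repeat the labelling and not the animals. On the first array Conv carried Cy3 and FAF carried Cy5, and on the second array the dyes were the other way round. No test between the diets is possible with 1 RNA sample each, and no p-value is given.

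MHC class I molecules display short peptides from inside the cell to CD8 T cells, and some non-classical members are read by natural killer cells and other lymphocytes. The proteasome cuts proteins into peptides, the Tap1 and Tap2 proteins together pump these into the endoplasmic reticulum, tapasin (Tapbp) holds the empty class I molecule at the transporter, Erap1 trims the peptides, and a heavy chain with B2m carries the peptide to the surface. Interferon-gamma raises most of these genes, and the intestinal epithelium carries class I on its surface in the steady state.

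The promoter sequences of 3 of these genes are shown because the genes moved differently between the diets: Tap1 was lower with FAF, and B2m and H2-K1 were not. Each line gives the 250 bases before the transcription start, 5′ to 3′ on the strand of the gene, from RefSeq in build GRCm38.p6; of the listed starts of H2-K1 the most upstream was taken. The capitals mark matches, on either strand, to the motifs listed after the sequences. The windows are chr17:34187306-34187555 on the plus strand for Tap1, chr2:122147437-122147686 on the plus strand for B2m and chr17:34000348-34000597 on the minus strand for H2-K1.
Tap1: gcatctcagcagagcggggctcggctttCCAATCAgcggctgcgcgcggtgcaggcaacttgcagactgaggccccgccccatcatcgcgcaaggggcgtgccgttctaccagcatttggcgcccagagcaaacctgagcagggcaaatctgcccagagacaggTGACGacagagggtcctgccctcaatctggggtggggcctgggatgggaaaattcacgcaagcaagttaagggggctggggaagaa
B2m: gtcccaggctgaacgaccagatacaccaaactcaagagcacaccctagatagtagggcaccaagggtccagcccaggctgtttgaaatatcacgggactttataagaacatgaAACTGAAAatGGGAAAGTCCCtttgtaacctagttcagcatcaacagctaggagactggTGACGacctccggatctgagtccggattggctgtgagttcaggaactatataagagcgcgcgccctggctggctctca
H2-K1: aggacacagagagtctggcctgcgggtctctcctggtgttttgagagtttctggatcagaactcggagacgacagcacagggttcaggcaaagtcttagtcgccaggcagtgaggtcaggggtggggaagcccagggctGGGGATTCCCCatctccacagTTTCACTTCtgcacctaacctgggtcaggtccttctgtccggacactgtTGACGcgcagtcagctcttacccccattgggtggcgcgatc

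The motifs searched began with the interferon-stimulated response element core, spelled GAANNGAAA. The others were the gamma-activated sequence TTCNNNGAA, the kappaB site GGGANNNNCC, the Y box TGATTGG and the X2 site TGACG. A shorter interferon response core, AANNGAAA, which lies within the first motif, was added after the first search had been seen. Of the 8 members with a promoter sequence at hand, 3 held the longer interferon core (H2-K1, H2-D1 and H2-M3), which 6.31% of all 32851 promoters hold. The shorter core was found in 5 of the 8, adding B2m and H2-T23, and in 21.3% of all promoters. A kappaB match lay in 4 of the 8 (B2m, H2-K1, H2-D1 and H2-M3) and in 17.6% of all promoters. In H2-K1 the kappaB letters match on both strands with a shift of 1 base, and lie 111 to 101 bases before the start, with the interferon core 90 to 82 bases before it. The X2 site was found in 5 of the 8 (Tap1, B2m, H2-K1, H2-D1 and H2-M3) and in 17.8% of all promoters, and the Y box in 3 of the 8 (Tap1, H2-D1 and H2-T23) and in 7.23%. The gamma-activated sequence lay in H2-M3 alone of the 8, and in 7.02% of all promoters. The Tap1 window thus held a Y box match and an X2 match. The B2m and H2-K1 windows held a kappaB, an X2 and an interferon match, which in B2m was to the shorter core only. That B2m match lies within the letters GAAACTGAAA, which the longer core as spelled here cannot match. Other spellings of the interferon element were not searched, so the counts of the longer core hold for this spelling only. A link between these matches and the ratios of the genes was not tested. A match describes the letters in these windows and is not a measured binding site. The start of Psmb9, an immunoproteasome gene, lies 225 bases from that of Tap1 and points the other way, so that their windows share 225 bases.

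The probe behind the Tap1 values is shown next, with the member and relative probes that stand the fewest edits apart. Edits were counted only for pairs that share a run of at least 15 bases. The pairs are shown because class I sequences are so similar that a probe of one gene can take up RNA of another. Each probe has 60 bases, is given 5′ to 3′ as in the array file, and the capitals in the paired lines mark the longest run that the pair shares. In the mm9 positions of the array file the Tap1 probe lies at chr17:34330854-34330913 on the plus strand, the H2-T23 probe at chr17:36167338-36167574 and the H2-K1 probe at chr17:34136478-34136724, both on the minus strand. The H2-T23 and H2-K1 positions are wider than the probes themselves. The mm9 exon and UTR annotation was not used here.
Tap1 probe: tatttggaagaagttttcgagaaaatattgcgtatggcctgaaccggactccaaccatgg
H2-T23 probe: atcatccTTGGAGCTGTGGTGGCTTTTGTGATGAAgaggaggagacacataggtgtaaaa
H2-Q7 probe: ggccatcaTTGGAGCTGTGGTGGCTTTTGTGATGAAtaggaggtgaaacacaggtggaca
H2-K1 probe: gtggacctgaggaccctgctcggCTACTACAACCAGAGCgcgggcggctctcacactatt
H2-Bl probe: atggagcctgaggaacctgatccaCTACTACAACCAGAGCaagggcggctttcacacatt

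The H2-T23 and H2-Q7 probes share a run of 28 bases and can be turned into each other by 11 single-base edits. Their mean log2 ratios were 0.03 and 0.04. The H2-K1 and H2-Bl probes share a run of 16 bases and stand 10 edits apart, with ratios of 0.13 and 0.12. Another H2-K1 probe shares a longer run, 20 bases, with an H2-Q10 probe but stands 24 edits from it, and their ratios were 0.13 and -0.18. A ratio at such a probe is named for the gene on the array and can hold signal of its relatives. Ratios this near 0 do not show whether it does. Probes were compared with other probes only, not with the RNAs of relatives, and shared signal was not tested.

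Of 43379 spots per array that are not controls, none was saturated. Measured probes (25440 of 41174) are those whose signal in Conv, in FAF or in both stood well above background on each array. The brightest probe stands for its gene. Ratios are given as log2 of FAF over Conv, so that a negative value means less signal with FAF, and the ± is the distance of either array from the mean of the 2 arrays. This error covers dye and hybridisation and leaves out the spread between mice. Over all measured genes the median ratio was -0.001, the median ± was 0.056, its 90th percentile was 0.143, and 78.1% of genes had the same sign on both arrays. The ± rests on 2 arrays of the same RNA pair, and more such arrays would not show the spread between mice. Every ratio is limited by 1 RNA sample per diet. Levels are normalised log2 intensities, and they are compared for one probe between the diets, never between probes. Statements that the values of the diets do or do not overlap describe the same RNA pair on both arrays. The share of all genes without overlap was not computed, so nothing is read from such statements.

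Tap1, which encodes one subunit of the peptide transporter, was the member that differed most between the diets. Its normalised log2 intensity was 9.86 and 9.49 with Conv and 8.66 and 8.72 with FAF on the first and the second array. Both FAF values lay below both Conv values. The log2 ratio was -1.20 on the first array and -0.77 on the second, which gives -0.99 ± 0.21, or 1.98-fold lower with FAF. A ratio as low was seen in 0.932% of all measured genes. The arrays differed for Tap1 more than for most genes: among 2414 genes within 0.5 log2 units of its intensity, 3.0% had a ± as large. In whole tissue, fewer cells of a type and less RNA per cell cannot be told apart.

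Tap2, which encodes the partner subunit, had a smaller difference. Its log2 intensity was 10.55 and 10.35 with Conv, and 9.98 and 10.19 with FAF. Both FAF values were below both Conv values, by unequal amounts. The log2 ratio was -0.57 on the first array and -0.16 on the second, a mean of -0.37 ± 0.20 or 1.29-fold lower. For both transporter genes the first array gave the larger difference.

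Tapbp, the gene of tapasin, was at nearly the same level with both diets. Its brighter probe read 13.69 and 13.46 with Conv and 13.59 and 13.46 with FAF, a log2 ratio of -0.05 ± 0.05. The second probe of Tapbp gave a log2 ratio of 0.08 ± 0.07. The values of the diets overlapped at the brighter probe, and the probes lay on opposite sides of 0. Erap1, which trims peptides in the endoplasmic reticulum, read 10.40 and 10.55 with Conv and 10.36 and 10.39 with FAF. Its log2 ratio was -0.04 and -0.15 on the arrays, with a mean of -0.10 ± 0.06, and both FAF values lay just under the lower Conv value. The other Erap1 probe never stood well above background.

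B2m, the light chain shared by all classical class I molecules, was slightly higher with FAF at each of its 3 probes. The brightest probe read 14.64 and 14.89 with Conv and 14.88 and 14.91 with FAF, so that the diets overlapped, and its log2 ratio was 0.24 on the first array and 0.02 on the second, a mean of 0.13 ± 0.11. A second B2m probe, which is printed on 10 spots per array, gave 0.07 ± 0.04, and its single spots lay between 0.00 and 0.06 on the first array and between 0.05 and 0.15 on the second. The third B2m probe gave 0.11 ± 0.07. None of these mean ratios reached 1.5-fold.

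H2-K1, the classical heavy chain with most probes here, was also slightly higher with FAF. Its brightest probe, on 10 spots, read 15.91 and 15.95 with Conv and 16.20 and 16.15 with FAF. Both FAF values lay above both Conv values. The log2 ratio was 0.29 and 0.20, a mean of 0.24 ± 0.05 or 1.19-fold higher. The single spots of this probe ran from 0.17 to 0.37 on the first array and from 0.13 to 0.29 on the second, all above 0. The other 3 H2-K1 probes had mean log2 ratios of 0.22, 0.13 and 0.13. The first and second H2-K1 probes share a run of 25 bases, so they are not independent readings.

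The non-classical heavy chains did not move as one. H2-T23 encodes the Qa-1 molecule, which natural killer cell receptors read, and its log2 intensity was 15.44 and 15.45 with Conv and 15.52 and 15.43 with FAF. The diets overlapped, and the log2 ratio was 0.03 ± 0.05. H2-M3, which presents bacterial formylated peptides, read 9.36 and 9.62 with Conv and 9.22 and 9.16 with FAF at its brighter probe. Both FAF values were below both Conv values, and the log2 ratio was -0.14 and -0.45, a mean of -0.30 ± 0.16. The dimmer H2-M3 probe gave -0.06 ± 0.05, so the lower value of H2-M3 was not seen to the same size at both probes.

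Nlrc5, the transactivator of class I genes, was well above background on 1 of the 2 arrays in each diet and was not measured by the rule above. Its log2 intensity was 6.29 and 6.44 with Conv and 6.36 and 6.29 with FAF, and no difference was detectable at this signal. Its log2 ratio was 0.06 on one array and -0.15 on the other.

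**Figure D1:**
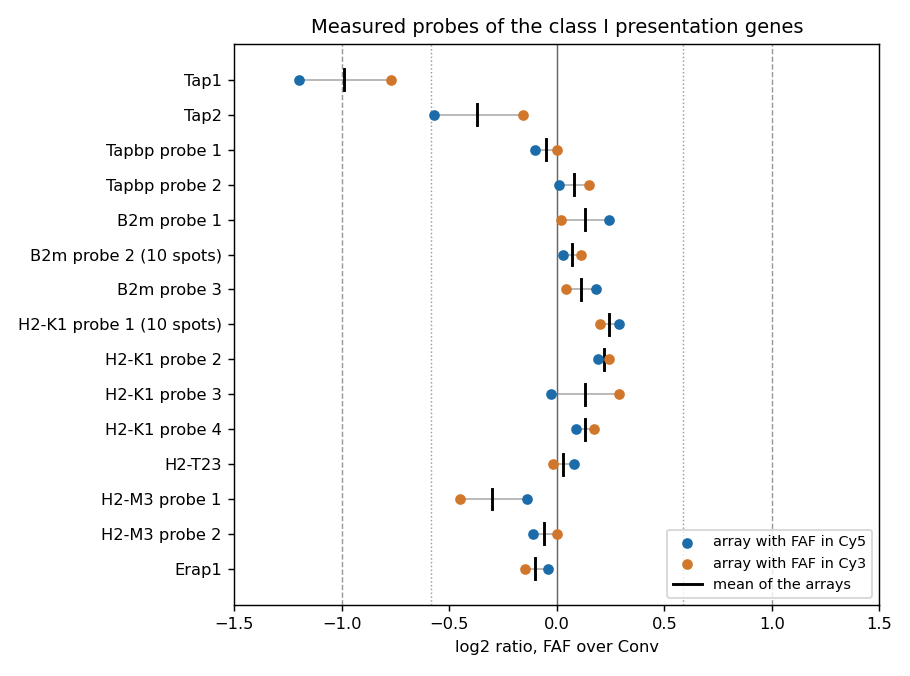
Log2 ratio of FAF over Conv for each of the 15 measured probes of the class I presentation genes, one row per probe, with the value of each array as a point, their mean as a black bar, a solid line at 0, dotted lines at 1.5-fold and dashed lines at 2-fold. Tap1 lies near -0.99 and past the 1.5-fold line on both arrays, while every other probe's mean lies between -0.37 and 0.24.

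**Figure D2:**
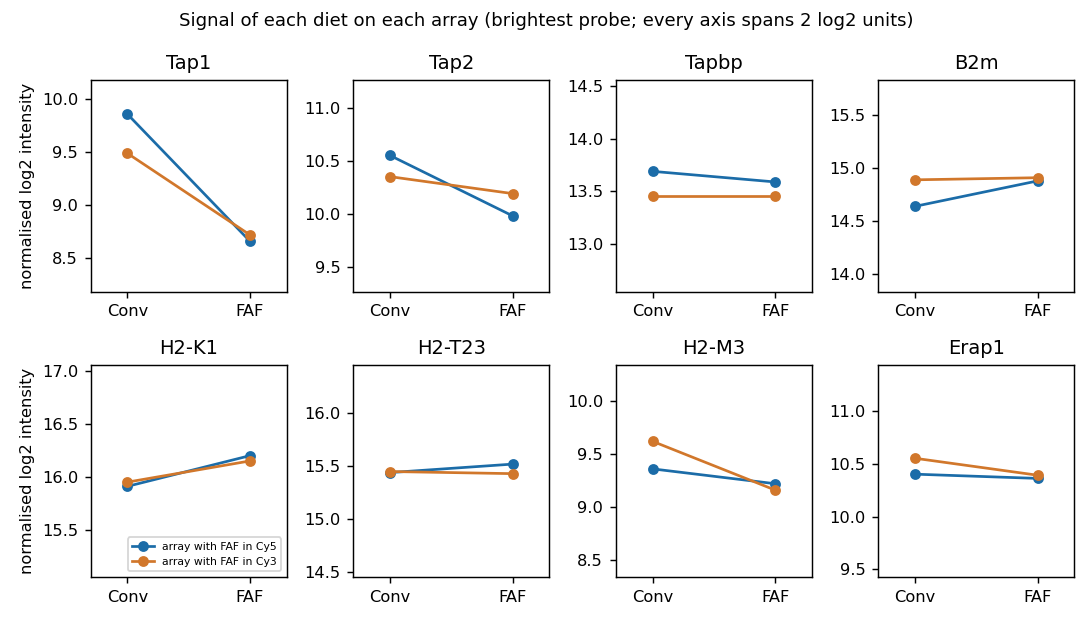
Normalised log2 intensity of the brightest probe of each measured gene in the Conv and the FAF sample, with a line per array and an axis of the same span in every panel. Tap1 has the steepest fall, and the lines of B2m, H2-T23 and Tapbp are close to flat on at least 1 array.

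Over the 8 measured members, 4 were below 0 on both arrays (Tap1, Tap2, H2-M3 and Erap1), 2 were above 0 on both (B2m and H2-K1), and 2 lay on opposite sides or at 0 (Tapbp and H2-T23). By the mean of the arrays 5 members were below 0 and 3 above, beside 8612 below and 8550 above of all 17162 measured genes. The median log2 ratio of the members was -0.07 beside -0.001 for all genes, and -0.05 for the 7 other than Tap1. By the 1.5-fold rule, which asks for a mean of 1.5-fold or more and the same sign on each array, 1 member was lower (Tap1) and 0 were higher, while of all measured genes 3.59% were lower and 4.52% were higher. By the 2-fold rule, which asks for a mean of 2-fold or more and 1.5-fold or more on each array, 0 members were lower and 0 higher, beside 0.88% lower and 1.53% higher of all genes. Tap1 missed the 2-fold limit by a small margin, at 1.98-fold. With 8 genes, 1 is the smallest count above 0, and nothing particular to the list is read from it. The counts for the lists that follow are to be read beside these same values over all genes.

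The genes that feed the transporter were described from lists of related genes. Of 14 measured genes of the proteasome, its activator and cytosolic peptidases, 12 were below 0 and 1 above, with a median log2 ratio of -0.40. The peptidase gene Tpp2, named after its values were seen, lay at 0, with 0.05 and -0.05 on the arrays. Psmb9, an immunoproteasome subunit that shares its promoter region with Tap1, read 13.89 and 13.82 with Conv and 12.79 and 12.67 with FAF. All FAF values were below all Conv values, and the log2 ratio was -1.13 ± 0.02, which makes it the only gene of the list past the 2-fold rule. Psmb8, another immunoproteasome subunit, was the second gene of the list past the 1.5-fold rule, at -0.88 on each array, and is named here after its values were seen. The third immunoproteasome subunit, Psmb10, had a log2 ratio of -0.41 ± 0.06, and the standard subunits that these 3 replace had ratios of -0.48 ± 0.12 (Psmb5), -0.38 ± 0.10 (Psmb6) and -0.53 ± 0.05 (Psmb7). These 4 genes too were named after their values were seen. Among the 7 chaperones that help to fold and load class I, 6 were below 0 and 1 above, the median was -0.28, and 0 passed the 1.5-fold rule. The chaperones farthest from 0 were Pdia3, the oxidoreductase bound to tapasin, at -0.51 ± 0.36, and Uggt1, a folding sensor, at -0.36 ± 0.07. The Pdia3 arrays differed widely, at -0.87 and -0.15.

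Regulators of class I moved in both directions. Of 17 interferon signalling genes 16 stood well above background in both diets, and of these 6 were below 0 and 9 above. Socs3, named after its values were seen, lay at 0, and Ifng was below 0 through its Conv signal alone. The median of all 17 genes was 0.05. By the 1.5-fold rule 3 of them were lower and 1 was higher, and 0 passed the 2-fold rule. Socs1, a feedback inhibitor of interferon signalling, had a log2 ratio of -0.90 ± 0.01. Ifng, the gene of interferon-gamma, read 6.89 and 7.08 with Conv at its brighter probe and was not well above background with FAF. That probe gave a bound of 1.59-fold lower. The other measured Ifng probe had a log2 ratio of -0.34 ± 0.03, or 1.26-fold lower, which falls short of the 1.5-fold rule. Jak2, a kinase of the interferon-gamma receptor, was higher with FAF at 0.66 ± 0.01 at its brighter probe and at 0.27 ± 0.04 at its other probe. Of 12 measured genes of the factors that bind the class I and II promoters 3 were below 0 and 8 above, with a median of 0.06. Atf1, named after its values were seen, lay at 0. Ciita, the class II counterpart of Nlrc5, was the only one past the 1.5-fold rule, at -0.97 ± 0.07.

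MHC class II genes present peptides to CD4 T cells, and most of those measured were lower with FAF. Of 9 measured class II presentation genes 6 were below 0 and 3 above, the median log2 ratio was -0.93, and 4 were lower by the 2-fold rule, beside 0.88% of all genes. H2-DMb1 (-1.55 ± 0.11) and H2-DMa (-1.38 ± 0.02), which encode the catalyst of class II peptide loading, were the lowest. H2-Aa, a class II alpha chain, followed at -1.25 ± 0.09, and the invariant chain gene Cd74 at -1.15 ± 0.04. Of 9 measured genes listed as class I receptors, 4 stood well above background in 1 diet only, and of the other 5 genes 2 were below 0 and 3 above. Cd8b1, the beta chain of the CD8 co-receptor, read 8.84 and 8.87 with Conv and 7.43 and 7.63 with FAF, a log2 ratio of -1.33 ± 0.08, and Cd8a, its partner chain, named after its values were seen, gave -0.27 ± 0.12.

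**Figure D3:**
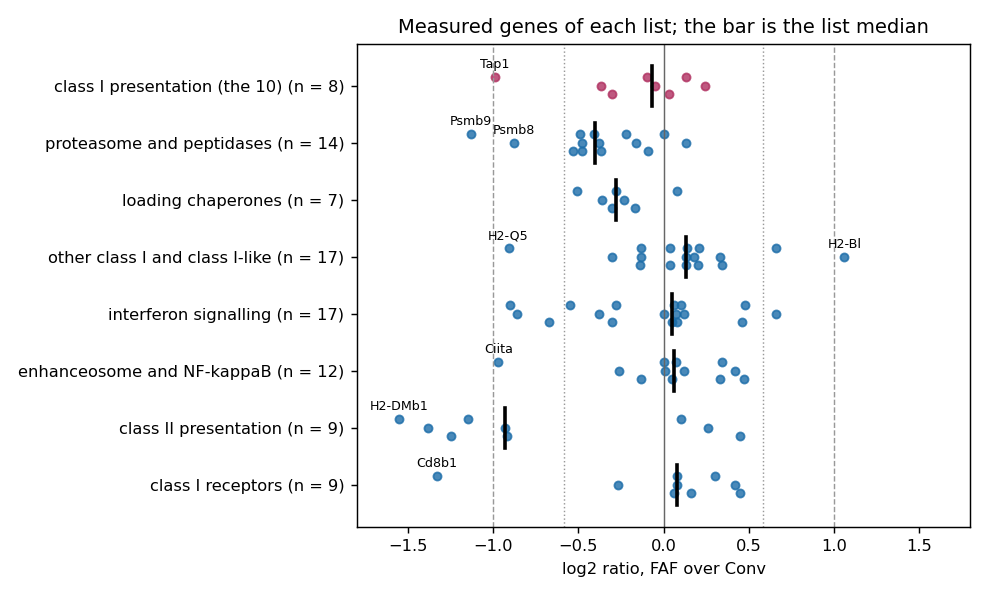
Log2 ratio of FAF over Conv of each measured gene (points) in the 10 class I presentation genes (red) and in 7 lists of related genes (blue), with the list median as a black bar and lines at 0, 1.5-fold (dotted) and 2-fold (dashed). The class II list has the lowest median, -0.93, followed by the proteasome and peptidase list at -0.40, and the class I presentation genes have a median of -0.07 with Tap1 standing below the others.

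Tap1 and Tap2 lie in the class II part of the MHC on chromosome 17, and their neighbours are given in RefSeq order. From 2 places before Tap1 to 1 place after it, H2-DMb1 (-1.55), Psmb9 (-1.13), Tap1 (-0.99) and Psmb8 (-0.88) were all past the 1.5-fold rule. Tap2, the next gene, was at -0.37. Beyond it H2-Ob was not measured, and H2-Ab1, H2-Aa and H2-Eb1 were at -0.93, -1.25 and -0.92. On the other side H2-DMb2 was not measured, H2-DMa was at -1.38, Brd2 at -0.01 and H2-Oa at 0.10. Tap2 thus had a smaller difference than the nearest measured genes on either side of it. Brd2, a gene of a chromatin reader, had a difference smaller than its ± of 0.08.

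**Figure D4:**
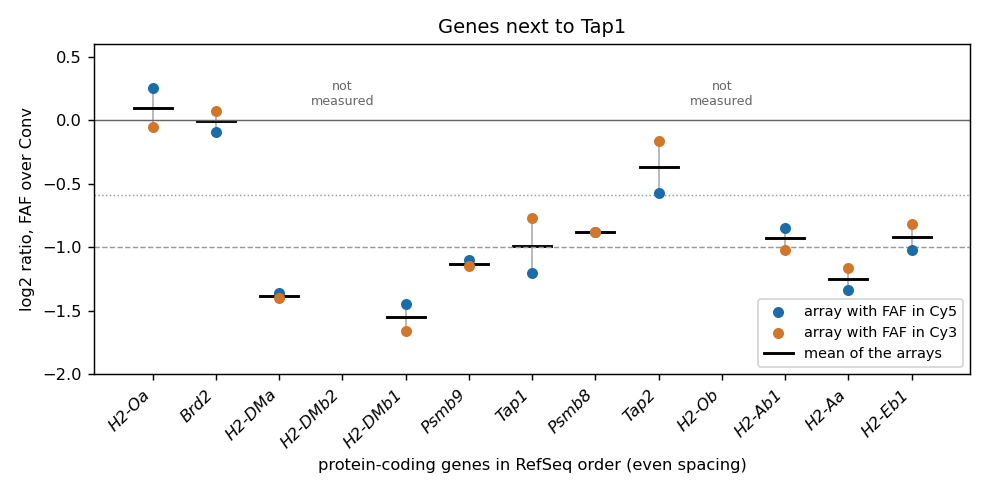
Log2 ratio of FAF over Conv of Tap1 and the 6 protein-coding genes on each side, in RefSeq gene order with even spacing, with each array as a point and the mean as a black bar; the dotted line is 1.5-fold and the dashed line 2-fold lower. From H2-DMa to H2-Eb1 every measured gene except Tap2 lies past the 1.5-fold line.

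The class I heavy chain probes as a family leaned slightly above 0. Of 42 probes named for class I heavy chains, 32 under 18 names were measured, with a median log2 ratio of 0.12. By the 1.5-fold rule 5 of these probes were higher and 1 was lower. The 5 came from H2-Bl, H2-Q10 and H2-Q1 only. Over all measured genes, each at its brightest probe, 4.52% were higher and 3.59% lower. The share over all measured probes was not computed, so nothing particular to the family is read from these counts. The names are given here after their values were seen. Among the higher probes, those of H2-Bl gave 1.06 and 0.94, while the H2-Bl probe shown above beside H2-K1 gave 0.12. The H2-Q10 probes ranged from -0.18 to 1.65, with 2 of the 5 past the rule. H2-Q1 was at 0.66 and H2-Q5, the lower one, at -0.91 ± 0.05. Probes of H2-Bl and H2-Q10 thus disagreed among themselves by more than their arrays did. In the list of other class I and class I-like genes, 5 of 17 measured genes were below 0 and 12 above, and the median was 0.13.

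**Figure D5:**
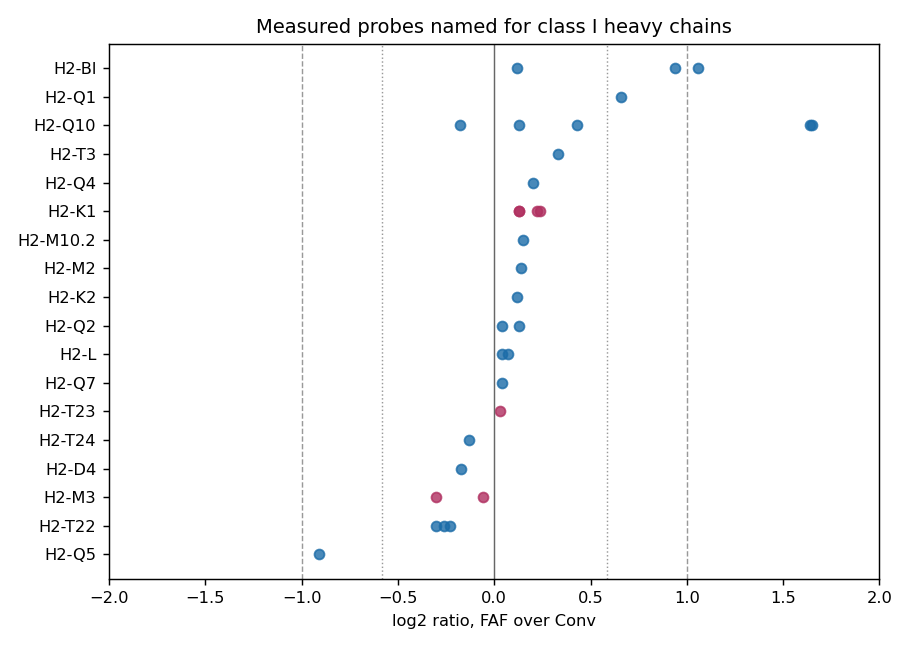
Mean log2 ratio of FAF over Conv of each measured probe named for a class I heavy chain, one row per gene name, with the members H2-K1, H2-T23 and H2-M3 in red and all others in blue; lines mark 0, 1.5-fold (dotted) and 2-fold (dashed). The H2-K1, H2-T23 and H2-M3 probes lie between -0.30 and 0.24, and the H2-Q10 probes spread from -0.18 to 1.65.

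The labelled tissue was checked against markers of its cells, and the marker lists differed in the direction of their ratios. All 16 epithelial markers were measured, 5 were below 0, 10 above and Cdh1 at 0, and by the 1.5-fold rule 5 were higher and 0 lower. Their mean log2 level was 14.89 and 14.99 with Conv and 15.37 and 15.36 with FAF. The brush border enzymes Sis, Lct and Alpi and the lipoprotein gene Apob were past the 2-fold rule, at 1.70, 1.62, 1.31 and 1.16. The other measured probe of Alpi gave 0.93, and those of Apob ran from 0.78 to 1.09. General epithelial markers, named after their values were seen, lay nearer to 0, with Epcam at 0.10, Cdh1 at 0.00, Krt8 at -0.22 and Krt19 at -0.33. Of 10 measured T cell markers 9 were below 0 and 3 were past the 1.5-fold rule, with a mean level of 8.15 and 8.25 with Conv and 7.75 and 7.74 with FAF; Cd4 and Trac were not measured. Those past the 2-fold rule were Cd8b1, given above, and Cd5 at -1.05. Of 7 measured B and plasma cell markers all 7 were below 0 and 2 were past the 1.5-fold rule (Cd79b at -0.83 and Mzb1 at -0.76), from a mean level of 10.64 and 10.58 with Conv to 10.18 and 10.15 with FAF. Of 8 cytotoxic and natural killer markers 6 were below 0, and Gzmb at -0.91 was the only one past the 1.5-fold rule.

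Markers of the myeloid and dendritic group, whose cells also carry class II, lay on both sides of 0. Of 14 measured, 5 were below 0 and 9 above, and by the 1.5-fold rule 1 was lower and 2 were higher. Their mean level was 9.16 and 9.18 with Conv and 9.33 and 9.30 with FAF. Cd14 was lower by the 2-fold rule, at -1.08, and the higher ones, named after their values were seen, were Csf1r at 0.61 and Fcgr1 at 0.59. The other measured probes of Csf1r gave 0.13 and 0.50, and that of Fcgr1 gave 0.41. Of 9 markers of all leukocytes 7 were below 0, and none passed the 1.5-fold rule; Cd52 and Arhgdib lay farthest from 0, at -0.57 and -0.39. Of 9 endothelial markers 8 were above 0, with a median of 0.34, none passed the 1.5-fold rule, and Tek (0.50) and Egfl7 (0.45) lay farthest from 0. Fibroblast and smooth muscle markers had a median of -0.74, with 10 of 11 below 0 and 7 past the 1.5-fold rule. Those past the 2-fold rule were Dcn at -1.04 and Col1a1 at -1.02, whose other measured probe gave -0.69. Fat tissue markers had a median of -1.20 over 8 measured genes, with 7 below 0 and 1 above. By the 2-fold rule 5 were lower and 1 was higher. Cfd, Adipoq, Car3 and Lpl, the 4 lowest, were at -2.72, -2.08, -2.07 and -1.27. The other measured probes of Car3 and Lpl gave -0.55 and -0.72. The higher gene, Cidec, a lipid droplet gene named after its values were seen, was at 1.06. The part of these cell types in the ratios of Tap1, Tap2 and the class II genes was not tested.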

How the data were processed

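Total RNA was labelled with the Quick Amp kit and read on 2 Agilent two-colour arrays, per the labels' protocols. Per the file headers, Feature Extraction 11.5.1.1 gave the deposited spot intensity of each dye and flags for background, outliers and saturation. The deposited files also hold that software's log10 ratio (Cy5 over Cy3), and the value table repeats it. Log2 ratios were computed in R 4.3.3 by limma 3.58.1 from the intensities: normexp background with an offset of 50, loess within each array, control spots at weight 0. Each array was turned to FAF over Conv by the labels' dyes, and the arrays were averaged. Levels were scaled between arrays by quantiles of the mean intensity (Aquantile). Flagged outlier spots were dropped and repeated spots averaged. A gene near background in 1 diet has only a bound for its fold, set against the dimmest signal that stood well above background, or its own if brighter.

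The arrays hold the same RNA pair and count as 1 sample per diet. Names were updated by accession from RefSeq (GRCm38.p6) for 27668 probes. The steps were tested on simulated data. Members and lists were chosen with earlier results of these data known. Every member is named. Each list gives up to 4 genes past the 2-fold rule, otherwise up to 4 past the 1.5-fold rule, otherwise the 2 farthest from 0; others are marked. A gene that this rule picks is withheld for evaluation and is not reported here. The alternatives were another offset, no background correction, median centring, the software's ratio, the value table, other filters on dim probes, means over probes, and each array alone.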

Additional observations from a re-analysis of the deposited data

How the results depend on the processing

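No paired analysis was possible because each diet gave 1 RNA sample, and both arrays hold the same pair. Tap1 was the only member past the 1.5-fold rule under all 10 alternatives, with log2 ratios between -1.20 and -0.77. By the 2-fold rule the count of members was 0 as reported and 1, namely Tap1, with an offset of 10, with no background correction, with the software's own log ratio and with the deposited value table; with single arrays it was 0 or 1, being 1 with the first array alone. The median of the members was -0.03 with median centring, -0.05 with no filter on dim probes, -0.04 with means over the probes of a gene, and between -0.09 and -0.07 with single arrays; in every other alternative it moved by less than the distance between the arrays. Tapbp kept its sign in 8 of 10 alternatives and H2-T23 in 9 of 10, and the other 6 measured members in all 10. Over all genes, the software's ratio put 350 lower and 487 higher past the 2-fold rule, against 151 and 263 as reported, and 1261 and 1445 past the 1.5-fold rule, against 616 and 775. Median centring put 82 lower and 183 higher past the 2-fold rule. The cause was not tested. One RNA sample per diet limits every value, and Nlrc5 was too dim to compare.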
